A study of Mus musculus with 5 samples.

Results

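Complement transcripts were examined in whole uteri of female mice exposed to seminal plasma (SP) from aged or young males. The 32 genes comprised components of the classical, lectin, alternative and terminal pathways, the receptors of the fragments C3a and C5a, and regulators, and they were chosen by gene symbol among the 28666 genes listed. All 32 were listed and 30 had enough reads to be among the 17013 genes tested. All recipients were ICR females (6 to 8 weeks old). In both groups the males were vasectomized C57BL/6 mice, so the females received seminal plasma but no sperm, and the groups differed in whether these males were aged or young. The aged-SP group had 2 libraries (replicates 1 and 4) and the young-SP group had 3 (replicates 1, 2 and 4). The sample labels place collection at 3.5 days after caging. The paper gives a different time, counted from mating, so the exact stage is uncertain. The authors had left out a young-SP library as an outlier, which was not analysed here, and uteri of females without SP exposure were not part of these RNA data. The labels do not say whether the replicates shared a cage or a male, so the p-values measure the spread between these libraries.

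Complement is a cascade of plasma and tissue proteins in which C1q on antibody-coated surfaces, lectins on sugars, or spontaneous turnover of C3 lead to cleavage of C3. Cleaved C3 tags surfaces for uptake, C3a and C5a act on leukocyte receptors, and the terminal components assemble a pore in membranes. In the mouse uterus, C3 is known as an estrogen-induced product of the epithelium, and membrane and fluid-phase regulators limit the cascade at the surface of host cells.

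The total count was between 15071914 and 16728601 per library, and each pair of libraries differed by more than counting noise. Levels are given as CPM (a gene's count relative to the TMM-adjusted total of its library), and levels of different genes are compared as FPKM, which also divides by gene length. Smooth muscle, stromal and epithelial markers were abundant in all libraries, as whole uterus would give, with summed levels of at least 8502, 3892 and 806 CPM for the myometrial, stromal and epithelial lists. Young-SP replicate 1 stood apart from the other young-SP libraries. The summed estrogen-response list (Ltf, Lcn2, Muc1, Greb1, Pgr, Sprr2f, Gjb2 and Clca1) was 6986 CPM in it, against 345 and 762 CPM in young-SP replicates 2 and 4 and 5014 and 6447 CPM in the aged-SP libraries. For the complement genes, the numbers called and the main fold changes are also given without it. The marker lists and the further genes of the pathway are given with all libraries only. The bulk libraries cannot tell fewer cells of a type from less RNA per cell.

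Among the complement transcripts, C3 was the most abundant, followed by Serping1, Clu and the C1q chains. C3, the protein on which all activation routes converge, had a mean level over the 5 libraries of 413 FPKM. Serping1, which encodes the C1 inhibitor, had 235 FPKM, and Clu, which encodes clusterin, an inhibitor of the membrane pore, had 207 FPKM. C1qa and C1qb had 123 FPKM each and C1qc 66.8 FPKM. The C1 protease gene C1s1 had 52.1 FPKM and Cfi, which encodes the protease that inactivates C3b and C4b, 46.5 FPKM. The lowest mean level was that of Hc, which encodes C5, at 0.0692 FPKM.

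**Figure D1:**
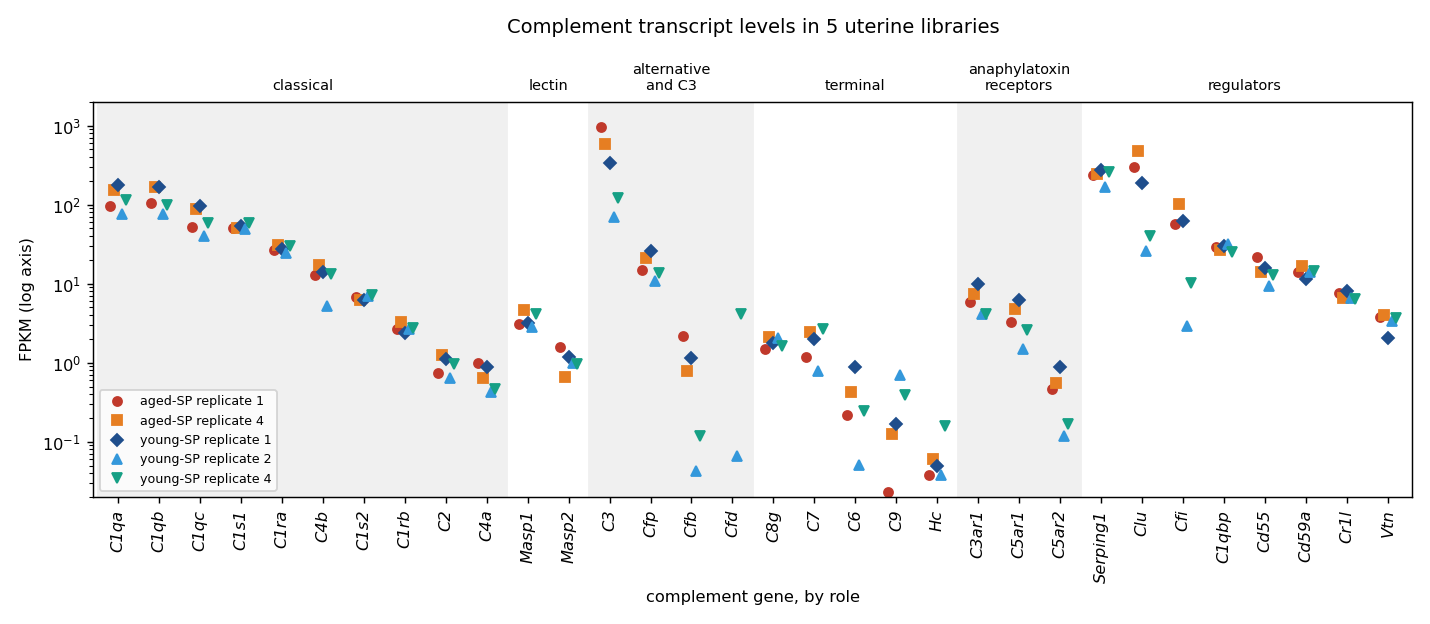
Levels of the 32 complement genes in FPKM (log axis) in each of the 5 libraries, grouped by role, with 1 symbol per library; values of 0 (Cfd in 3 libraries) are not drawn. C3 spanned 68.9 to 951 FPKM, whereas C1s1 and C1s2 differed little between the libraries.

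With all 5 libraries, 0 of the 30 tested genes passed an adjusted p of 0.05 with an absolute log2 fold change over 1 in edgeR's quasi-likelihood test, against 0.147% of all tested genes (25 genes). DESeq2 called 0 of the 32, against 3.60% of the genes with an adjusted p. At an unadjusted p under 0.05 in edgeR, 2 of 30 were higher in the aged-SP group (C3 and Clu; background 9.62% of the genes tested) and 1 was lower (C9; background 9.36%). The groups did not overlap for C3, Clu and Vtn, which were higher in both aged-SP libraries (3 of 30, background 19.5%), and for C9, which was lower (1 of 30, background 19.3%). These shares were near or below the background. C9 passed the count filter only through young-SP replicates 2 and 4, so its place in these counts is no support for a difference. The point estimate was above 0 for 24 and below 0 for 6 of the 30 genes, with a median log2 fold change, aged-SP over young-SP, of 0.15, beside 0.0072 for all tested genes, of which 50.9% were above 0.

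C3 was the transcript with the largest absolute difference. Its gene lies at chr17:57203970-57228136 on the minus strand (positions as deposited, which match GRCm38). C3 was at 4944 and 3018 CPM in aged-SP replicates 1 and 4, and at 1759, 347 and 631 CPM in young-SP replicates 1, 2 and 4. Both aged-SP libraries lay above all young-SP libraries, and young-SP replicate 1 was nearest to them. The group means were 3981 ± 1362 CPM (SD, n = 2) and 913 ± 747 CPM (SD, n = 3). The log2 fold change was 2.13 ± 0.68 (SE), a 4.36-fold higher level, with a 95% interval from 0.43 to 3.82 and an adjusted p of 0.196 in edgeR (unadjusted 0.0228) and 0.160 in DESeq2, so it did not pass the threshold. C3 took 0.489% and 0.301% of all counts in the aged-SP libraries and 0.175%, 0.0355% and 0.0627% in the young-SP libraries. Among all genes ordered by FPKM, it ranked 38 and 74 in the aged-SP libraries and 129, 658 and 352 in the young-SP libraries.

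The start regions of C3 and C9 are shown because these genes had an unadjusted p under 0.05 in edgeR and a matched RefSeq start window. Clu had such a p-value but no matched window, and for C9 the p-value is no support for a difference. Windows are from GRCm38.p6 and run from 250 bases before to 50 after the start. The C3 window is chr17:57228087-57228386 on the minus strand and the C9 window is chr15:6445096-6445395 on the plus strand, each written 5′ to 3′ along the gene. Capitals mark the TATAAA match, which begins at base 265 of the C3 window, after the annotated start.
C3: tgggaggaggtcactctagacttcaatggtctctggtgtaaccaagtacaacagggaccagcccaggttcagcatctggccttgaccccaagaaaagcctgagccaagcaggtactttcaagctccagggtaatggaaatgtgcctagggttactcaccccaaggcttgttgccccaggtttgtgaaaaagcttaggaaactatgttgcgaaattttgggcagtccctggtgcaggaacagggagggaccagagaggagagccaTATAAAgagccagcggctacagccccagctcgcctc
C9: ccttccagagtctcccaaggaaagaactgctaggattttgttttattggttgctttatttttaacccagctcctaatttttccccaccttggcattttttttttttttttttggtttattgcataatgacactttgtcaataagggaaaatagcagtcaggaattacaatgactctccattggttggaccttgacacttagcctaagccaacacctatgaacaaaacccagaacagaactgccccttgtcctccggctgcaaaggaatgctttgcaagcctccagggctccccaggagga

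Windows were matched for 23 of the 32 genes (26 windows), and not for Cfi, C4b, Masp1, C1qa, Cfb, C4a, Clu, Serping1 and C2. On both strands, TATAAA was present in windows of C3, C3ar1, C7, Hc and Vtn and in 13.6% of all 32851 windows. A STAT-type motif (TTC, 3 bases, GAA) was present for C1ra, C1rb, C7, Masp2 and Vtn and in 8.3% of all windows. An interferon-type motif, GAAA repeated after a gap of 2 bases, was present for Cd59a and Vtn and in 3.44% of all windows. The estrogen response element (GGTCA, 3 bases, TGACC) and a kappa B motif (GGGA, 1 base, TTTCC) were found in 0 of the 26 windows, and in 0.07% and 0.411% of all windows. The motifs can overlap, and a match describes the letters in the window only.

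The other genes of the alternative pathway were low beside C3. Cfb encodes factor B, the protease subunit of the alternative C3 convertase, and its values are given although it was outside the naming rule, since it had the widest range. Cfb was at 6.17 and 2.24 CPM in the aged-SP libraries and at 3.32, 0.118 and 0.334 CPM in the young-SP libraries. The groups overlapped through young-SP replicate 1, and the highest library was 52.2 times the lowest. That lowest library, young-SP replicate 2, had 2 counts, so counting error makes this ratio uncertain. The log2 fold change was 1.74 ± 1.19 (SE), with an adjusted p of 0.474 in edgeR. Of its 50-base stretches, 73% also occur in Gm20547, a transcript that spans Cfb and its neighbour C2, so its count is uncertain.

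Cfp encodes properdin, which stabilises the alternative convertase and is made by leukocytes. It was between 18.2 CPM (young-SP replicate 2) and 45.2 CPM (young-SP replicate 1), with both aged-SP libraries between these values and a log2 fold change of 0.12 ± 0.41 (SE; edgeR adjusted p = 0.895). Cfd encodes factor D, known as adipsin and abundant in fat. Its count was 0 in both aged-SP libraries and in young-SP replicate 1, with 1 count in young-SP replicate 2 and 58 counts in young-SP replicate 4, and it was not tested. A count of 0 allows up to 0.181 and 0.192 CPM in aged-SP replicates 1 and 4 (3 counts, counting error only). The adipose marker genes Adipoq, Plin1 and Cidec had 12, 7 and 8 counts in young-SP replicate 4 and at most 2 counts in every other library. Plin4, the only tested gene of the adipose list, did not share this pattern and was at 42.6 and 56.1 CPM in the aged-SP libraries and at 23.8, 26.7 and 41.1 CPM in the young-SP libraries (unadjusted p = 0.0434, adjusted p = 0.250 in edgeR). Whether fat attached to that uterus gave the Cfd reads was not tested.

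Clu followed a pattern close to that of C3. It was at 1044 and 1654 CPM in aged-SP replicates 1 and 4, and at 654, 86.0 and 139 CPM in young-SP replicates 1, 2 and 4. Both aged-SP libraries were again above all young-SP libraries, but their order differed from that for C3. The means were 1349 ± 432 CPM (SD, n = 2) and 293 ± 314 CPM (SD, n = 3). The log2 fold change was 2.2 ± 0.87 (SE), 4.61-fold, with a 95% interval from 0.02 to 4.38 and an adjusted p of 0.261 in edgeR (unadjusted 0.0483) and 0.308 in DESeq2.

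Cfi, the protease gene among the regulators, had the same low libraries. Its level was 126 and 224 CPM in the aged-SP libraries and 139, 6.38 and 22.9 CPM in the young-SP libraries. Young-SP replicate 1 lay between the aged-SP libraries, so the groups overlapped, and the highest library was 35.1 times the lowest. The log2 fold change was 1.64 ± 1.15 (SE; edgeR adjusted p = 0.484). C3, Clu and Cfi together summed to 6114 and 4897 CPM in the aged-SP libraries and to 2553, 440 and 793 CPM in the young-SP libraries. The other 29 genes together summed to 1620 and 1820 CPM against 1967, 1177 and 1635 CPM, which overlapped between the groups.

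**Figure D2:**
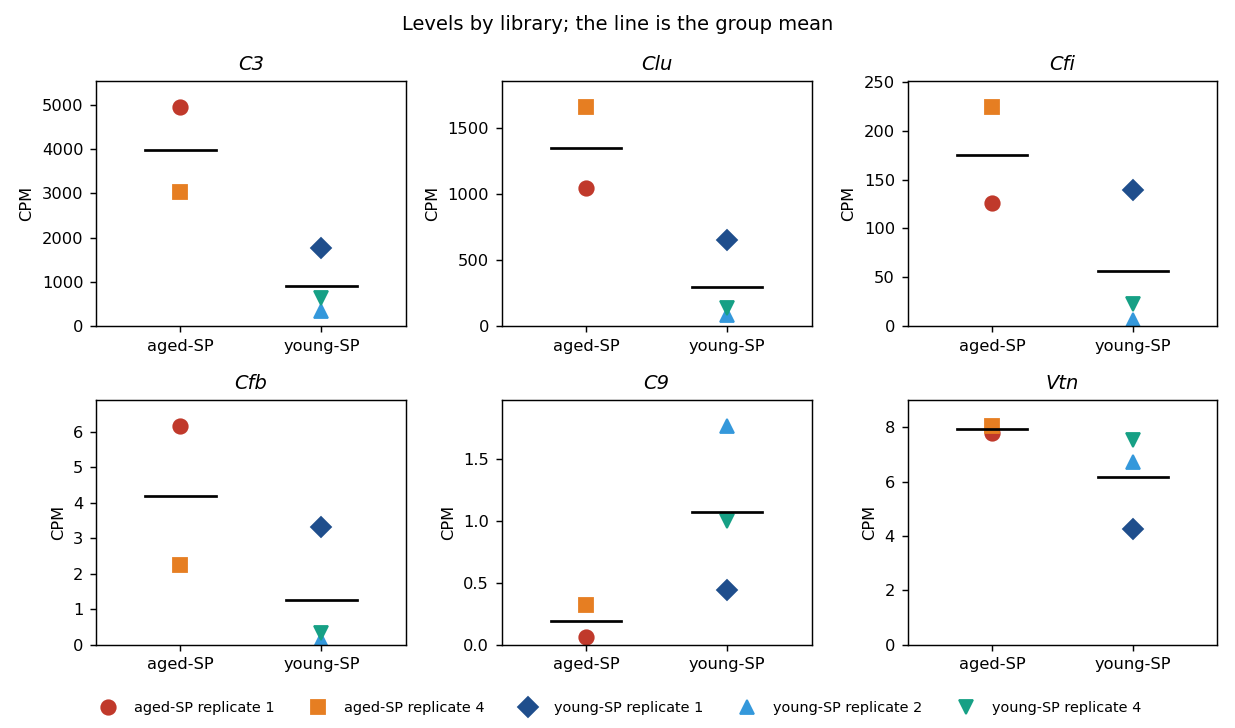
CPM (linear axes from 0) of C3, Clu, Cfi, Cfb, C9 and Vtn in each library, by group, with a line at the group mean. For C3 and Clu both aged-SP libraries lay above the young-SP libraries, whereas for Cfi and Cfb young-SP replicate 1 lay within the aged-SP range.

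The calls for C3 and Clu turned on young-SP replicate 1. Without it, 2 of the 30 genes were called by edgeR (C3 and Clu), beside 3.45% of the genes tested in that fit. The log2 fold change of C3 was then 3.01 ± 0.39 (SE; edgeR adjusted p = 0.0279) and that of Clu 3.57 ± 0.35 (SE; edgeR adjusted p = 0.0183). Cfi and Cfb had 3.57 and 4.19 on the same scale, with edgeR adjusted p-values of 0.0519 and 0.0527. At an unadjusted p under 0.05, 9 of 30 were higher (C3, Clu, Cfb, Cfi, C3ar1, C5ar1, C5ar2, C4a and Cfp; background 11.6%) and 1 was lower (C9; background 11.1%). The shares called and higher were then above the background, and the share lower was below it. This library was singled out after its values had been seen, so these values describe the remaining 4 libraries.

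Several marker lists differed between the libraries alongside C3, Clu, Cfi and Cfb. The estrogen-response sums given above were high in the aged-SP libraries and in young-SP replicate 1, where Ltf and Lcn2 gave most of them. Ltf, which encodes lactotransferrin and is the most abundant gene of that list, was at 2708 and 4330 CPM in the aged-SP libraries and at 3632, 28.3 and 394 CPM in the young-SP libraries. Of the 8 genes of the list, 1 was higher at an unadjusted p under 0.05 in edgeR (Greb1) and 0 were lower, and DESeq2 called 1. Not every gene followed the sums. Greb1 was at 40.9 and 60.2 CPM in the aged-SP libraries and at 17.5, 14.8 and 10.6 CPM in young-SP replicates 1, 2 and 4. Pgr was lower in both aged-SP libraries, at 200 and 204 CPM against 288, 248 and 222 CPM. The gland list summed to 3952 and 2937 CPM in the aged-SP libraries and to 514, 46.7 and 39.5 CPM in the young-SP libraries, mostly from Prss28 and Prss29, secreted proteases of the glands, while its defining factor Foxa2 was between 8.51 and 14.1 CPM. Cxcl15, a chemokine gene and the only one of the 5 gland genes with an unadjusted p under 0.05, ran the other way, at 2.90 and 1.92 CPM in the aged-SP libraries against 8.69, 20.2 and 8.14 CPM (log2 fold change -2.35 ± 0.53, SE; adjusted p = 0.116 in edgeR and 0.000254 in DESeq2, which called it). The epithelial list summed to 1268 and 1355 CPM against 1624, 806 and 996 CPM. Of its 8 genes, 5 had a point estimate above 0 and 3 below 0. Only Krt18 had an unadjusted p under 0.05 in edgeR, with higher values after aged SP (adjusted p = 0.178). In the stromal list, 6 of 7 genes had a point estimate below 0, and Pdgfra, Hoxa11 and Hand2 had an unadjusted p under 0.05 in edgeR. Pdgfra was at 347 and 344 CPM in the aged-SP libraries and at 453, 617 and 560 CPM in the young-SP libraries, which did not overlap, while the stromal sums of 3892 and 4906 CPM against 4022, 5385 and 5879 CPM did. Of the 7 progesterone-response genes, 5 had an unadjusted p under 0.05 in edgeR with lower values after aged SP (Areg, Ihh, Calca, Il13ra2 and Gata2). Areg and Calca passed the count filter only through young-SP libraries. Cyp26a1 also had an unadjusted p under 0.05 in edgeR, but only aged-SP replicate 1 was high. It was at 104 and 2.30 CPM in the aged-SP libraries and at 2.88, 2.36 and 3.40 CPM in the young-SP libraries. Over all tested genes, 9.62% were higher and 9.36% lower at that threshold. The part of hormonal stage or of gland, epithelial and stromal content in the levels of C3, Clu, Cfi and Cfb was not tested.

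In the classical pathway, no difference between the groups was resolved. Of 10 genes, 0 passed the test in edgeR or in DESeq2 and 0 had an unadjusted p under 0.05. The log2 fold changes were between -0.07 and 0.47, with a median of 0.15. C1qa, C1qb and C1qc encode the chains of C1q, the recognition molecule that tissue macrophages are known to make. C1qa was at 102 and 159 CPM in the aged-SP libraries and at 187, 77.6 and 119 CPM in the young-SP libraries. C1qb was at 116 and 181 CPM against 182, 81.0 and 109 CPM. C1qc was at 103 and 171 CPM against 184, 75.1 and 113 CPM. For all 3 chains, young-SP replicate 1 was the highest library and young-SP replicate 2 the lowest, and both aged-SP libraries fell between them. The log2 fold changes were 0.02 ± 0.40, 0.26 ± 0.38 and 0.14 ± 0.41 (SE; edgeR adjusted p = 0.980, 0.744 and 0.881), and the 95% interval of C1qa ran from -0.96 to 1.01.

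The C1q chains kept nearly fixed proportions to each other. The ratio of C1qa to C1qb, as FPKM, was between 0.915 and 1.14 over the 5 libraries, and that of C1qc to C1qb between 0.50 and 0.582. The ratio of C1qb to Csf1r, the receptor gene that marks macrophages, was between 0.918 and 1.31 on the CPM scale. The summed macrophage list was 448 and 641 CPM in the aged-SP libraries and 626, 351 and 487 CPM in the young-SP libraries, so that young-SP replicate 2 was lowest there too. Of the 10 genes of that list, 5 had a point estimate above 0 and 5 below 0. Only Lyve1 had an unadjusted p under 0.05 in edgeR, with higher values in the aged-SP group. Its log2 fold change was 0.85, below the threshold of 1 (adjusted p = 0.0734 in edgeR and 1.39e-05 in DESeq2).

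The proteases C1r and C1s, which C1q carries, were among the steadiest complement transcripts. C1s1 was at 160 and 158 CPM in the aged-SP libraries and at 168, 150 and 182 CPM in the young-SP libraries. The aged-SP values lay within the young-SP range, and the log2 fold change was -0.07 ± 0.11 (SE), with a 95% interval from -0.34 to 0.20. C1ra was between 70.2 and 91.5 CPM, C1rb between 5.75 and 7.87 CPM, and C1s2 between 16.5 and 19.2 CPM. The ratio of C1ra to C1s1, as FPKM, was between 0.492 and 0.609. C1ra shares 50.8% of its 50-base stretches with other genes, mainly its copy C1rb, and C1s1 shares 35.1%, mainly with C1s2, so the split within these pairs is uncertain.

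C2 and C4 supply the subunits of the classical C3 convertase. C4b was between 29.1 CPM (young-SP replicate 2) and 97.3 CPM (aged-SP replicate 4), with a log2 fold change of 0.46 ± 0.44 (SE; edgeR adjusted p = 0.605). C4a, listed as a processed transcript, was between 2.60 and 6.23 CPM, and C2 between 2.42 and 4.92 CPM. C4a and C4b share 30.6% and 34.6% of their 50-base stretches with each other, and C2 shares 41.5% with other genes, mainly Gm20547. In the lectin pathway, Masp1 was between 7.57 and 12.7 CPM and Masp2 between 2.17 and 5.32 CPM. Both proteases overlapped between the groups, with log2 fold changes of 0.20 ± 0.26 and 0.12 ± 0.41 (SE; edgeR adjusted p = 0.711 and 0.897). The exons of Masp2 overlap Tardbp over 54.9% of their bases, so its count is uncertain.

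**Figure D3:**
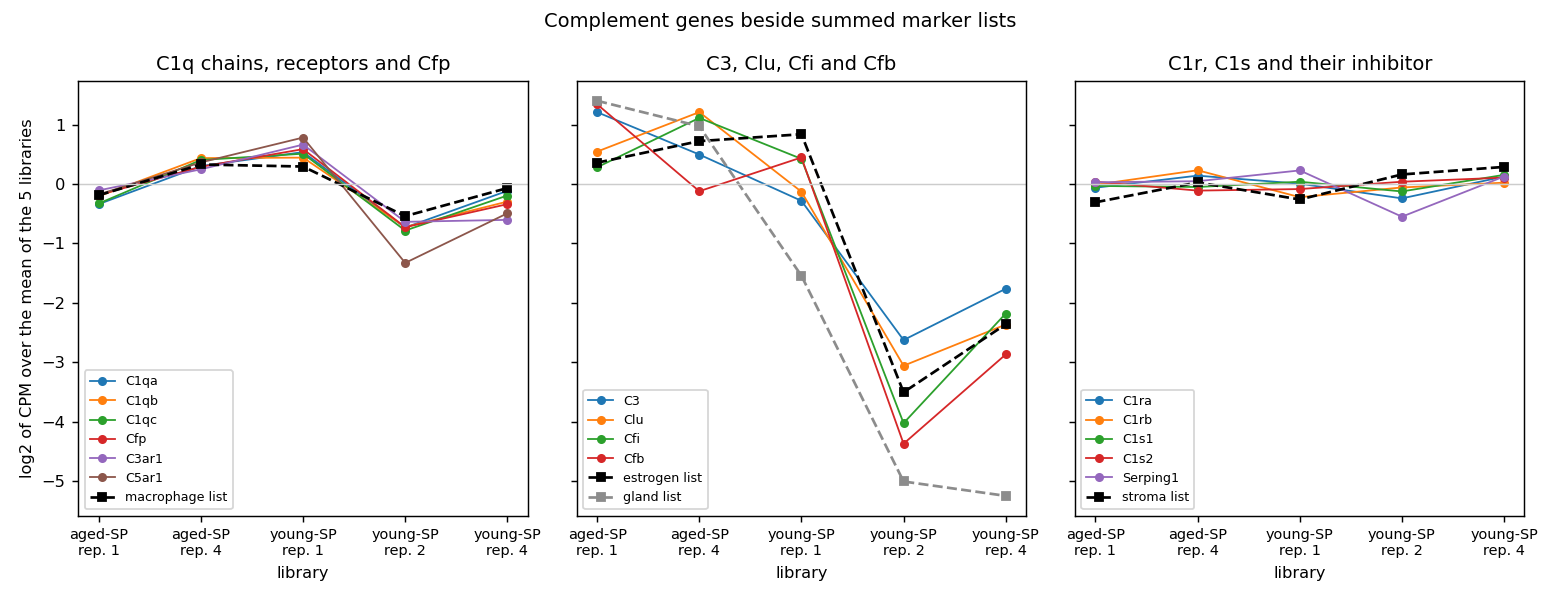
For each library, the log2 of the CPM over the mean of the 5 libraries, for the C1q chains with Cfp, C3ar1 and C5ar1 (left), for C3, Clu, Cfi and Cfb (middle) and for C1r, C1s and Serping1 (right), beside summed marker lists (dashed). Lines only join the values of a gene; the left group peaked in young-SP replicate 1, the middle group was lowest in young-SP replicates 2 and 4, and the right group varied least.

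The receptors C3ar1, C5ar1 and C5ar2 bind the fragments C3a and C5a on leukocytes. C3ar1 was between 17.4 and 42.8 CPM, C5ar1 between 3.78 and 16.3 CPM, and C5ar2 between 0.414 and 3.13 CPM. Each was highest in young-SP replicate 1 and lowest in young-SP replicate 2, as were the C1q chains, and the aged-SP values lay between. The log2 fold changes were 0.14 ± 0.44, 0.20 ± 0.61 and 0.41 ± 0.87 (SE; edgeR adjusted p = 0.893, 0.888 and 0.835). The neutrophil list, which includes other carriers of these receptors, summed to 104 and 31.0 CPM in the aged-SP libraries and to 220, 53.4 and 36.3 CPM in the young-SP libraries, with 0 of 7 tested genes at an unadjusted p under 0.05 in edgeR and 0 called by DESeq2. Without young-SP replicate 1, the log2 fold changes of the receptors were 0.69, 0.95 and 1.84 (edgeR adjusted p = 0.0934, 0.210 and 0.0770).

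The terminal components were scarce in the uterus. C9 encodes the subunit that closes the pore, and its counts were 1 and 5 after aged SP and 7, 30 and 15 in young-SP replicates 1, 2 and 4. These are 0.0605 and 0.320 CPM against 0.438, 1.77 and 1.0 CPM, so that both aged-SP libraries were below all young-SP libraries, with young-SP replicate 1 nearest to them. The log2 fold change was -2.47 ± 0.91 (SE), with a 95% interval from -4.74 to -0.20 and an adjusted p of 0.237 in edgeR (unadjusted 0.0375) and 0.178 in DESeq2. At a single count in a library, a counting error alone is large. C9 reached the count filter only through young-SP replicates 2 and 4, in the group where it was higher. Its p-value and the lack of overlap therefore cannot serve as support for a difference.

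Hc had 4 and 6 counts against 5, 4 and 15 counts and was not tested. C6 was between 0.177 and 3.13 CPM, and its highest library, young-SP replicate 1, was 17.6 times its lowest. C7 was between 2.07 and 7.14 CPM, with a log2 fold change of 0.01 ± 0.58 (SE) whose sign turned with DESeq2 size factors. C8g was between 2.24 and 3.20 CPM in all libraries, with -0.01 ± 0.27 (SE). C8a and C8b, which encode the other chains of C8, had at most 1 count per library.

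Of the 8 regulators, 7 had a point estimate above 0 and 0 passed the test in edgeR or DESeq2, and 1 had an unadjusted p under 0.05 (Clu). Serping1 was at 560 and 567 CPM in the aged-SP libraries and at 643, 375 and 599 CPM in the young-SP libraries. The aged-SP values lay within the young-SP range, and the log2 fold change was 0.06 ± 0.24 (SE; edgeR adjusted p = 0.909). Vtn encodes vitronectin, which binds the forming pore. It was at 7.80 and 8.06 CPM in the aged-SP libraries and at 4.25, 6.74 and 7.54 CPM in the young-SP libraries, which did not overlap, although young-SP replicate 4 came close (log2 fold change 0.36 ± 0.28, SE; edgeR adjusted p = 0.530).

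Membrane regulators were measured at moderate levels. Cd55, which encodes decay-accelerating factor, was between 44.6 CPM (young-SP replicate 2) and 108 CPM (aged-SP replicate 1), with a log2 fold change of 0.52 ± 0.28 (SE; edgeR adjusted p = 0.379). Cd59a, an inhibitor of the pore, was between 20.6 and 30.4 CPM (0.24 ± 0.15, SE; edgeR adjusted p = 0.454). Cr1l, the rodent regulator known as Crry, was between 66.0 and 84.2 CPM (0.03 ± 0.15, SE), and C1qbp, a mitochondrial protein that can bind C1q, between 70.5 and 87.6 CPM (-0.04 ± 0.13, SE). The values of these 4 genes overlapped between the groups.

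**Figure D4:**
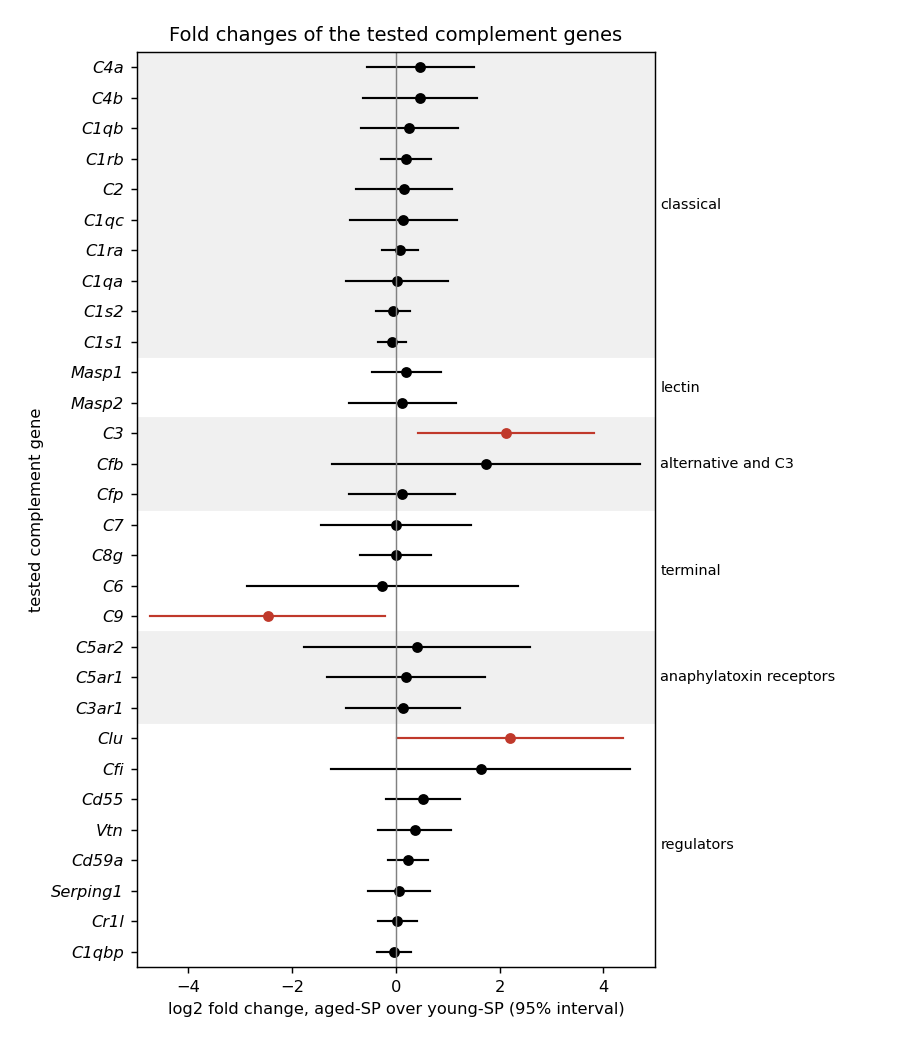
Log2 fold change, aged-SP over young-SP, with its 95% interval from edgeR for the 30 tested complement genes, by role; red marks an unadjusted p under 0.05 and the vertical line is 0. C3 and Clu lay above 0 and C9 below 0, and the intervals of the other 27 genes include 0. C9 passed the count filter only through young-SP libraries.

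Across the 5 libraries, complement genes varied more than most. The SD of log2 CPM had a median of 0.504 over the 30 tested genes, beside 0.250 over all tested genes, without regard to group. Of the 30, 8 (C3, Cfb, C6, C9, C5ar1, C5ar2, Cfi and Clu) exceeded the 90th percentile of all tested genes, and 8 were below the median of all tested genes. C9, Cfb, C6 and C5ar2 had 1, 2, 3 and 7 counts in their lowest library, where counting error adds to the SD. Genes were not matched for abundance in this comparison. The lowest library was young-SP replicate 2 for 21 of the 30, beside 19.7% of all tested genes. The highest was young-SP replicate 1 for 10, for which no share over all tested genes was taken. The steadiest were C1s2, C1s1 and C1qbp, whose highest library was 1.17, 1.21 and 1.24 times the lowest.

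Further genes of the pathway were read from a list of 25, of which 24 were in the table and 12 were tested. Of these 12, 8 had a point estimate above 0 and 4 below 0. EdgeR called 0 of 12 with all libraries (background 0.147%), and DESeq2 called 1 (C4bp; background 3.60%). At an unadjusted p under 0.05 in edgeR, 2 were higher (C4bp and Susd4; background 9.62%) and 0 lower (background 9.36%). C4bp, which encodes the C4b-binding protein, the fluid-phase regulator of the classical convertase, was at 8.71 and 6.52 CPM against 3.06, 0.650 and 0.868 CPM. Both aged-SP libraries were higher, with 2.31 ± 0.66 (SE; adjusted p = 0.165 in edgeR and 0.0174 in DESeq2).

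Susd4, which encodes a membrane regulator, was between 5.82 and 6.83 CPM in the aged-SP libraries and between 2.94 and 3.94 CPM in the young-SP libraries (log2 fold change 0.89 ± 0.23, SE; adjusted p = 0.142 in edgeR and 0.0701 in DESeq2). The lectin-pathway recognition genes Mbl1, Mbl2, Fcnb and Colec10 had at most 1 count in each library. Other recognition genes of that pathway were detected. Fcna was between 0.709 and 2.25 CPM and overlapped between the groups, and Colec11 had between 4 and 14 counts. Of the 6 hepatocyte markers, Alb, Apoa1, Apoa2 and Fgb had at most 6 counts per library. Serpina1a had counts of 54 and 19 after aged SP and of 15, 8 and 19 after young SP. Its log2 fold change was 1.33 ± 0.59 (SE; edgeR adjusted p = 0.302), opposite in sign to that of Ttr (-3.73). Ttr, which encodes transthyretin, had counts of 4 and 0 after aged SP and of 26, 39 and 19 after young SP, lower in both aged-SP libraries as was C9 (unadjusted p = 0.00625, adjusted p = 0.123 in edgeR and 0.00474 in DESeq2, which called it). Ttr, like C9, passed the count filter only through young-SP libraries. The part of the source of the Ttr reads in the C9 counts was not tested.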

How the data were processed

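RNA of whole uteri was measured in 5 libraries, 2 aged-SP and 3 young-SP, grouped by the sample labels. Libraries were made with the NEBNext Ultra kit. The submitters' processing notes name HISAT2 2.1.0, HTSeq 0.6.0 and Bowtie2 2.2.3, the strand setting of the counting and the genome build are not given in the sources used here, and the gene positions of the complement genes other than Masp1 match GENCODE M21 on GRCm38. The authors deposited raw counts per gene, which were used for all tests. The deposited FPKM values were made by the authors as counts divided by gene length and library total, and here they served only to compare levels between genes. Fold changes, p-values and adjusted p-values in the deposited table hold the authors' DESeq2 comparison, were not used, and 0 columns of values per sample were left out.

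Genes were kept by filterByExpr, scaled by TMM and compared with the quasi-likelihood test of edgeR 4.0.16 in R 4.3.3, with Benjamini-Hochberg adjustment over 17013 genes. Calls needed an adjusted p below 0.05 together with a log2 fold change beyond 1 in either direction. The SE was derived from the test statistic. The biological coefficient of variation was 25.1%. DESeq2 1.42.0, limma 3.58.1 (voom), 2 other scalings, 2 other filters, the adjusted p alone, a replicate block and leaving out each library were alternatives, and edgeR with legacy = FALSE was added after the data were seen. The scripts were tested on simulated data. Intervals cover the spread between libraries, and limits for 0 counts cover counting error only. Sequence shared between genes was measured on GENCODE M21 transcripts, in stretches of 50 bases. Start windows of 300 bases came from RefSeq (GRCm38.p6). Figures were drawn with matplotlib 3.10.9 in Python 3.11.15.

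Genes were given library by library when their unadjusted p was under 0.05, DESeq2 called them, the groups did not overlap, or they were among the 8 with the highest mean FPKM. Of other lists, genes with an unadjusted p under 0.05, genes near 0 and the most abundant were named. Values of other genes were added after they were seen (Cfb, Cfd, Hc, Csf1r, Foxa2, Pgr, Adipoq, Plin1, Cidec, Fcna, Colec11 and Serpina1a). The complement genes and the lists were chosen with earlier results of these data known. Itgam is listed in more than 1 place, and the first was used. A gene of the list of further complement genes is not reported here, and the counts of that list leave it out.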

Additional observations from a re-analysis of the deposited data

How the results depend on the processing

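Of the complement genes, the numbers called, higher and lower at an unadjusted p under 0.05 were 0, 2 and 1 with all libraries. The number higher was 1 with DESeq2's Wald test and 1 with the replicate block, and the number lower was 0 with limma-voom and 0 with at least 10 counts in every library. Leaving out each library gave 0 to 2 called, 0 to 9 higher and 0 to 1 lower, and the 2 calls and the 9 higher came without young-SP replicate 1. The number higher was 0 without aged-SP replicate 1 or young-SP replicate 4. It was 1 when young-SP replicate 2 was dropped. The number lower was 0 without aged-SP replicate 1, and also without young-SP replicate 2 or 4 and under the minimum of 10 counts, where C9 no longer passed the filter. The median log2 fold change was 0.15 with all libraries. Over the alternatives it ran from 0.013 (without young-SP replicate 2) to 0.36 (without young-SP replicate 1). Every alternative moved it by less than the spread between libraries, 0.373. That spread is wider than the median itself, so this comparison cannot show whether the shift held. Of 384 values of single genes under alternatives, 333 kept their direction and side of the threshold, 49 turned their direction and 2 passed the threshold. C3, Clu, Cfi, Cfb, C9, Cd55, Vtn, C4a, C4b, C1rb, Cd59a and C1s1 kept their direction in every alternative in which they were tested.

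Replicate numbers 1 and 4 are shared by both groups, but the labels do not pair them. The deviations of same-numbered libraries had correlations of 0.152 and 0.136. With the replicate block, 2 rather than 25 of all tested genes were called, and the log2 fold change became -0.23 for C1qa, -0.12 for C1qc, -0.025 for C1ra, -0.083 for C2, -0.038 for Masp2, -0.073 for Cfp, -0.42 for C7, 0.055 for C8g, -0.066 for C5ar1, -0.014 for Cr1l, -0.14 for Serping1 and 0.019 for C1qbp. Replicate number 2 occurs only in the young-SP group, so with the block that library adds nothing to the group comparison. Leaving out young-SP replicate 2 without a block gave -0.24 for C1qa, -0.12 for C1qc, -0.025 for C1ra and -0.14 for Serping1. Of the genes named for the block, only Masp2 then had the other sign, at 0.068. C6 was 0.45 with limma-voom, and C7 was -0.0007 with DESeq2 size factors and -0.0019 with DESeq2's Wald test. The cause of these other changes was not tested.

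With 1 library left out, the log2 fold change ranged from -0.33 to 0.39 for C1qa, -0.096 to 0.63 for C1qb, -0.27 to 0.53 for C1qc, -0.032 to 0.17 for C1ra, -0.14 to 0.017 for C1s2, -0.27 to 0.49 for C2, -0.096 to 0.45 for Masp1, -0.66 to 0.63 for Masp2, -0.13 to 0.58 for Cfp, -0.82 to 1.15 for C6, -0.59 to 0.43 for C7, -0.28 to 0.23 for C8g, -0.085 to 0.69 for C3ar1, -0.17 to 0.95 for C5ar1, -0.030 to 1.84 for C5ar2, -0.091 to 0.14 for Cr1l, -0.14 to 0.20 for Serping1 and -0.14 to 0.041 for C1qbp. A fit with 1 aged-SP library assumes that it varies like the others. For C3 the range was 1.72 to 3.01 and for Clu 1.77 to 3.57. Depth limits C9, Hc, Cfd, Cfb, C6 and C5ar2, each with fewer than 10 counts in at least 1 library.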
